A study of Homo sapiens with 6 samples.

Results

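TBL1XR1, C15orf40, NABP1, TMEM106B and SENP5 are 5 human genes with fewer counts after 35 than after 30 PCR cycles in a mixture of human and mouse cells. Each had at least 1 long transcript among those counted. In NABP1, however, most counts lay on a transcript of 2269 bases, and its long transcript of 11524 bases fell least. The 5 genes were chosen because their counts fell in the 10X Chromium libraries, so those falls are given as a description and carry no test. Their members are all human transcripts (isoforms) of the 5 genes, matched by identifier without version to GENCODE release 44. Of 90 annotated isoforms, 35 had a value in at least 1 of the 5 libraries, among 46484 human transcripts and 12472 human genes with a value in the series. TBL1XR1 contributed 17 of its 39 isoforms, C15orf40 5 of 12, NABP1 7 of 16, TMEM106B 2 of 16 and SENP5 4 of 7.

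TBL1XR1 encodes a WD40-repeat subunit of the NCoR and SMRT corepressor complexes, which bring histone deacetylase to genes silenced by unliganded nuclear receptors. NABP1 (also called SSB2) binds single-stranded DNA in the SOSS complex, which takes part in the repair of double-strand breaks. SENP5 is a protease that removes SUMO, a small protein tag, from other proteins, and TMEM106B is a membrane protein of late endosomes and lysosomes. C15orf40 is a little-studied protein-coding gene. A unique molecular identifier (UMI) is a random tag put on each captured RNA before PCR, so that copies of 1 molecule are counted once.

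The libraries were made from human JJN3 and mouse 5TGM1 cells as the labels name them, both of them myeloma cell lines. The study's library methods name JJN3 on both platforms as well. Its culture methods list Jurkat, a T cell line, and not JJN3, and a figure legend names Jurkat for 10X. Cells were captured in droplets either by 10X Chromium, with libraries of 30 and 35 PCR cycles, or by Drop-seq, a bead-based droplet method, with libraries of 25, 30 and 35 cycles. All were read by nanopore sequencing, and neither line carried a treatment that differed between libraries. Each condition was 1 library, so there was no spread between replicates, and the intervals below are 95% intervals for counting error only.

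The 10X libraries held 494147 counts at 30 cycles and 740994 at 35, and the Drop-seq libraries 528502 to 2311090. The barcodes with the most counts were taken as cells, 2000 in each 10X library, 500 in the Drop-seq libraries of 30 and 35 cycles and 1000 in that of 25, as many as the labels give. A cell with at least 90% of its counts on 1 species was called human or mouse, and the others mixed. This gave 1006 and 911 human cells in 10X at 30 and 35 cycles, 806 and 881 mouse cells and 188 and 208 mixed barcodes. The Drop-seq libraries had 251, 166 and 165 human cells at 25, 30 and 35 cycles. The smallest value stored in a matrix was 2 in both 10X libraries, 3 in Drop-seq at 30 and 35 cycles and 1 at 25 cycles, so that an empty entry could stand for a value below those numbers. Human cells also differed between platforms in their marker genes. In 10X all 10 plasma cell markers had a value, 640 and 519 counts in sum, and at most 2 of 15 T cell markers did, with 4 and 2 counts. In Drop-seq only the plasma cell marker MZB1 had a value, with 5 to 7 counts, whereas 6 to 10 T cell markers did, with 144 to 218 counts. The human cells in Drop-seq lacked 9 of 10 markers of the labelled cell type, JCHAIN, SDC1 and XBP1 among them, and a difference between platforms cannot be told apart from a difference between human cell populations.

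Several of the counted isoforms ended in long untranslated stretches. On hg38, TBL1XR1 lies on chromosome 3, minus strand, from 177019340 to 177228000, and SENP5 on the plus strand of the same chromosome from 196867856 to 196934714. NABP1 lies on chromosome 2, plus strand, from 191678068 to 191741097. TMEM106B lies on chromosome 7, plus strand, from 12211270 to 12243367, and C15orf40 on chromosome 15, minus strand, from 82988441 to 83011641. The 12 isoforms with at least 100 counts over the cells of both 10X libraries were 2269 to 12539 bases long, with a median of 7418, against a median of 2799 over the 391 tested human transcripts with an annotated length. In C15orf40 ENST00000304177 the 3′ untranslated region took 10780 of 11274 bases, and in the TMEM106B isoforms it took 11392 bases. In NABP1 ENST00000410026 it took 10894 of 11524 bases, and in SENP5 ENST00000323460 3791 of 6244. It was shorter in NABP1 ENST00000425611, the isoform with the most counts, at 1175 bases, and in ENST00000307849, at 2118. TBL1XR1 ENST00000474363 and ENST00000636864 had no annotated coding region. The last exon held between 59.3% and 96.5% of each of these 12 isoforms.

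The 3′ ends are where oligo(dT) primers start reverse transcription, and the last 30 bases of 7 isoforms, 6 different sequences, are shown because every one of them holds a canonical polyadenylation signal, AATAAA or ATTAAA (capitals), on the transcript strand of hg38.

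TBL1XR1 ENST00000430069, chr3:177019355-177019384, minus strand: tATTAAAcacaaagtgtttagtaaagtaca

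TBL1XR1 ENST00000474363, chr3:177020754-177020783, minus strand: aggtccagAATAAAatatattttgatatta

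C15orf40 ENST00000304177, chr15:82994817-82994846, minus strand: tcataAATAAAcagaacgaagattctttga

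NABP1 ENST00000410026, chr2:191696633-191696662, plus strand: acctcttatttAATAAAgggagaatataaa

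TMEM106B ENST00000396667 and ENST00000396668, chr7:12243338-12243367, plus strand: tcatggaAATAAAagataatttgaaaagca

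SENP5 ENST00000323460, chr3:196934685-196934714, plus strand: tttgaaaAATAAActaaatgcctttataaa

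AATAAA or ATTAAA, searched on the transcript strand only, lay within the last 40 bases of 10 of the 12 isoforms (83.3%), against 67.0% of the 391 tested human transcripts and 70.7% of the 123 of them with 5000 bases or more. Oligo(dT) can also pair with A runs inside a transcript, and the longest run in TMEM106B and in C15orf40 is shown in capitals.

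TMEM106B, 28 A, chr7:12242379-12242408, plus strand: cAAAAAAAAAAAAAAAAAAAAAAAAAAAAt

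C15orf40, 21 A, chr15:83003117-83003146, minus strand: tctcAAAAAAAAAAAAAAAAAAAAAggatc

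TBL1XR1 ENST00000430069, 8 A, chr3:177024575-177024604, minus strand: gaagatacattAAAAAAAAtcttctgatgt

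The TMEM106B run lay 960 bases before the 3′ end and the C15orf40 run 8305 bases before it. NABP1 ENST00000410026 had a run of 38 A, 1656 bases before its end. Whether reads began at these runs was not tested. A run of at least 15 A was found in 4 of the 12 isoforms (33.3%), in 17.9% of the tested human transcripts and in 40.7% of those with 5000 bases or more. The 5 TBL1XR1 isoforms, the other 2 of NABP1 and that of SENP5 had longest runs of 7 to 10 A. The 12 isoforms had a median GC content of 35.9%, below the median of 45.6% over tested human transcripts and of 40.4% over the long ones. The lowest values, 33.09% to 35.97%, were those of the TBL1XR1 and TMEM106B isoforms, which overlap within each gene. C15orf40 ENST00000304177, at 48.2%, lay above both medians of tested transcripts. SENP5 ENST00000323460 (43.96%) and NABP1 ENST00000425611 (41.38%) lay above that of the long ones only, so low GC content was not shared by all 5 genes.

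In 10X, all 5 genes had fewer counts at 35 cycles, although the library was deeper. A gene's count is the highest value of its isoforms in each barcode, summed over cells, because isoforms of 1 gene often held the same value in the same barcode. TBL1XR1 went from 268 counts at 30 cycles to 102 at 35, a log2 ratio of −1.88 (−2.23 to −1.55) in CPM, which are counts scaled to the same total in each library. NABP1 went from 379 to 188 counts, −1.50 (−1.77 to −1.25), and SENP5 from 81 to 29, −1.96 (−2.64 to −1.35). The largest fall of the 5 was that of C15orf40, from 107 to 32 counts, −2.22 (−2.85 to −1.65). TMEM106B fell from 134 to 61 counts, −1.62 (−2.09 to −1.18). The intervals of the 5 genes overlapped each other. Among 254 human genes with 100 or more counts, 33.5% were at least 2-fold lower at 35 cycles, the 5 genes included.

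Among the human cells of the 5 libraries, each gene stood highest in 10X at 30 cycles, then in 10X at 35 cycles, and lowest in Drop-seq. In CPM of human cells, TBL1XR1 stood at 1467 and 435, NABP1 at 2111 and 845, C15orf40 at 620 and 140, TMEM106B at 798 and 285 and SENP5 at 473 and 125. Mouse cells had 0 CPM for 4 genes in both libraries and for TBL1XR1 at 35 cycles. Mixed barcodes lay between mouse and human cells for every gene in both libraries, for example 793 and 275 CPM for TBL1XR1. Drop-seq human cells had 0 to 188 CPM on 23 counts or fewer per gene. The exact Poisson intervals of 10X at 35 cycles and of the highest Drop-seq library overlapped for C15orf40 and TMEM106B, and among the Drop-seq libraries each gene's neighbouring levels overlapped. The order of the 10X libraries is the one the genes were chosen on.

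**Figure D1:**
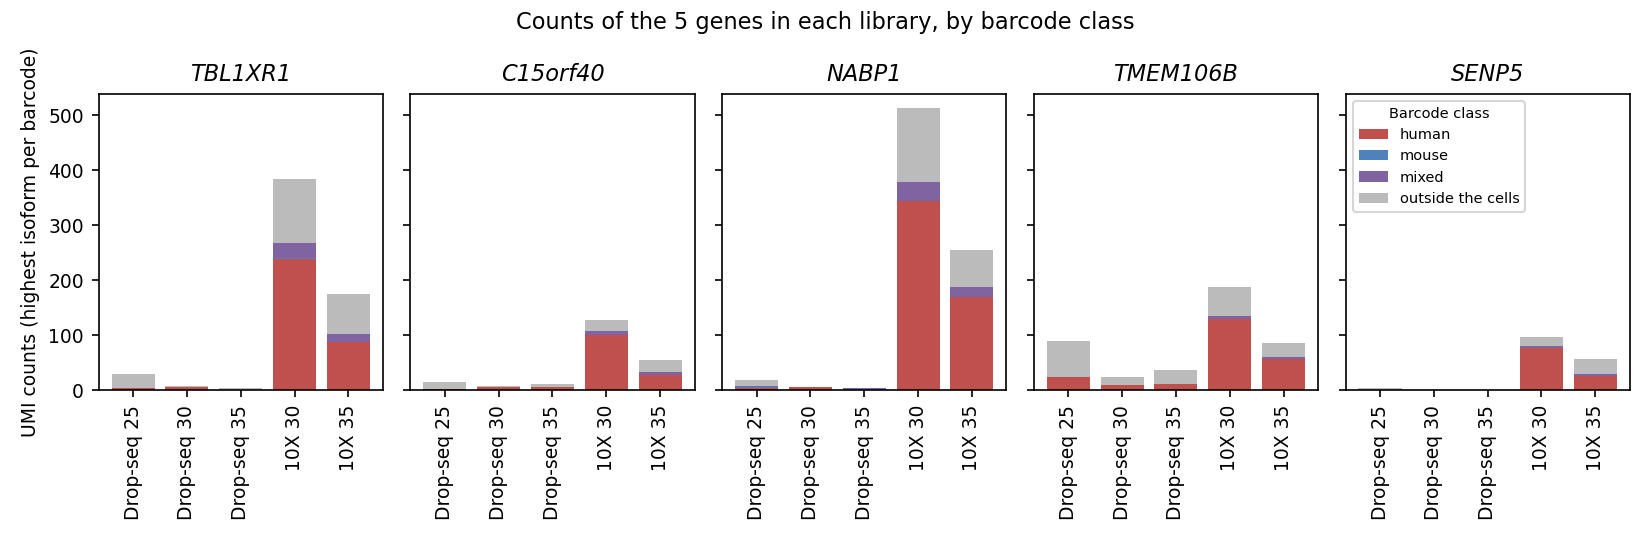
UMI counts of the 5 genes in each of the 5 libraries (platform and PCR cycles on the x axis), stacked by barcode class, over all barcodes. The human part of the 10X bars fell from 239 to 87 counts for TBL1XR1 and from 344 to 169 for NABP1, and the mouse part was 2 counts at most.

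All 12 isoforms with at least 100 counts were at least 2-fold lower at 35 cycles, in a contrast where 118 of 427 tested human transcripts (27.6%) were. Human transcripts held 58.6% of the counts in 10X cells at 30 cycles and 52.8% at 35. With CPM within human transcripts the number of member isoforms was 11, since NABP1 ENST00000410026 then stood at −0.88. With that scaling 95 of the 427 tested human transcripts were lower. As the genes were chosen on this contrast, nothing is read from the difference between members and all tested transcripts. The median log2 ratio of the 12 isoforms was −1.96 against −0.15 over all 427, and they took ranks 1 to 109 of the lowest ratios. The human transcripts nearest to the 2-fold limit were ENST00000606183 of POU5F2 just inside it, with 89 and 62 counts (−1.01), and ENST00000371655 of RAB3B just outside, with 71 and 50 counts (−1.0).

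The 5 TBL1XR1 isoforms had 2697 bases in common, 64.4% of the shortest of them. ENST00000636864, a transcript of 6888 bases with no annotated coding region, had 203 counts at 30 cycles and 72 at 35 (−1.98, −2.40 to −1.59). The protein-coding ENST00000430069 of 7948 bases had 195 and 71 counts (−1.94), and ENST00000457928, coding as well and 8182 bases long, had 109 and 52 (−1.55). The retained-intron transcript ENST00000474363 had the lowest ratio of the 12 isoforms, 191 against 53 counts (−2.33, −2.81 to −1.90). The nonsense-mediated decay transcript ENST00000631253 had 148 and 59 counts (−1.81) at 4186 bases. These isoforms all contained chr3:177022926-177025524, a block of 2599 bases of the last exon, and ended at 5 different positions within 3586 bases of the gene's 3′ end. Of the 170 barcodes with a TBL1XR1 value at 30 cycles, 157 had values on 2 or more isoforms, and the sum over isoforms was 3.22 times the sum of the highest ones. ENST00000430069 and ENST00000636864 had values in 124 and 130 barcodes, and 99 of these were the same. Values were equal in 86 of the 99, but 80.6% of TBL1XR1 entries stood at the smallest stored value, so equality says little. As the 5 isoforms share sequence and barcodes, they are not 5 independent measurements. The other 9 TBL1XR1 isoforms with a value in 10X cells had 2 to 4 counts at 30 cycles and 0 to 4 at 35.

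NABP1 differed most among its own isoforms. ENST00000425611, with a coding region of 612 bases and the shortest of the 12 isoforms at 2269 bases, had 323 counts at 30 cycles and 154 at 35 (−1.56, −1.85 to −1.28). ENST00000307849, a nonsense-mediated decay transcript of 3002 bases, had 139 and 48 counts (−2.02, −2.53 to −1.54). ENST00000410026, with the last exon of 11064 bases, had 131 and 90 counts (−1.03, −1.44 to −0.64). The longest NABP1 isoform thus had the smallest fall of the 12, and its interval did not overlap that of ENST00000307849. ENST00000307849 shared 80 of its 87 barcodes with ENST00000425611 at 30 cycles but only 15 with ENST00000410026. The 3 isoforms had a common block at chr2:191685599-191686943 of 1345 bases and 3 different 3′ ends. Among the other NABP1 isoforms, ENST00000451500 had 25 and 8 counts and ENST00000462712 had 12 and 6.

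**Figure D2:**
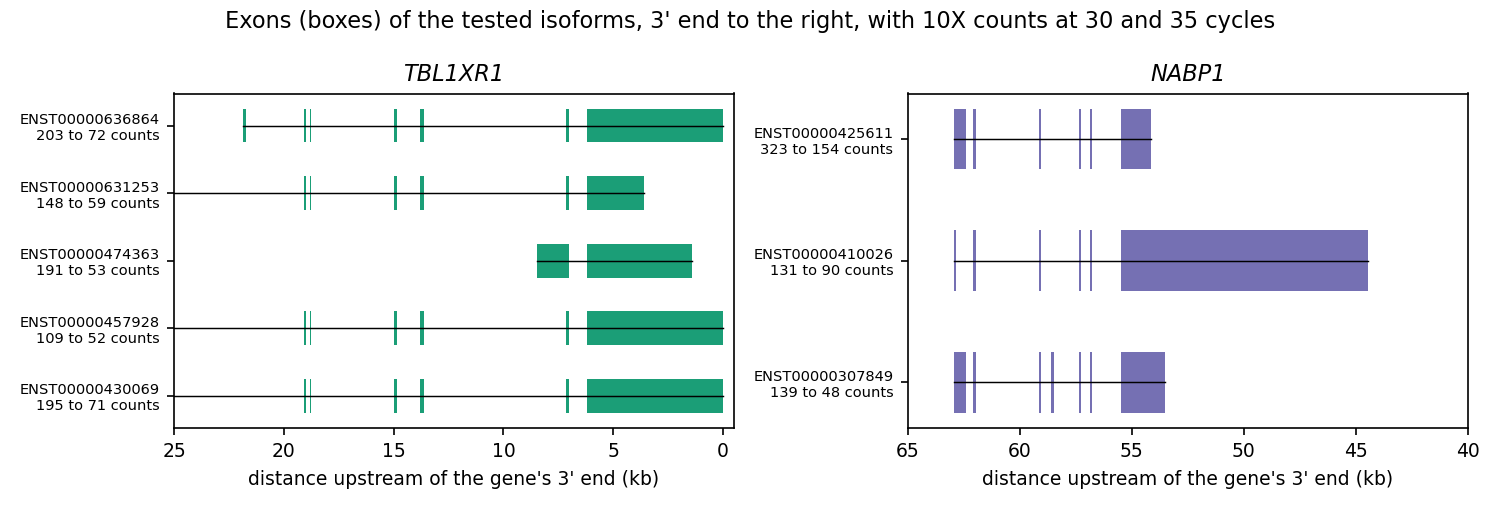
Exons (boxes) of the tested TBL1XR1 and NABP1 isoforms by distance upstream of the annotated gene end in kb, with each isoform's 10X counts in cells at 30 and 35 cycles. The TBL1XR1 isoforms share the last exon with different ends, and NABP1 ENST00000410026 carries the last exon of 11064 bases.

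TMEM106B was counted on a pair of isoforms that differ at the 5′ end only: they shared 12345 bases and the 3′ end. ENST00000396667 had 107 and 50 counts (−1.58, −2.11 to −1.09), and ENST00000396668 had 112 and 39 (−2.0, −2.58 to −1.48). Their intervals overlapped, and 51 of the 88 barcodes with a value at 30 cycles had both. C15orf40 and SENP5 each rested on 1 isoform. C15orf40 ENST00000304177 had 105 and 32 counts (−2.19, −2.83 to −1.62), and the other C15orf40 isoforms had no more than 2 counts in 10X cells. SENP5 ENST00000323460 had 77 and 27 counts (−1.99, −2.70 to −1.36), with 0 to 4 on each of the other 3. Of the 31-base words of C15orf40 ENST00000304177, 25.7% also occurred on either strand in transcripts of other genes, and 24.5% on the same strand. At least 1 such word was found in 10080 other genes. How reads that match several genes were assigned is not given in the sources used here. On either strand the share of words was 0.0893% to 5.13% in the other 11 isoforms. NABP1 ENST00000410026 shared words with 7563 other genes, each TMEM106B isoform with 7116, SENP5 ENST00000323460 with 4718 and the rest with 3 to 128.

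**Figure D3:**
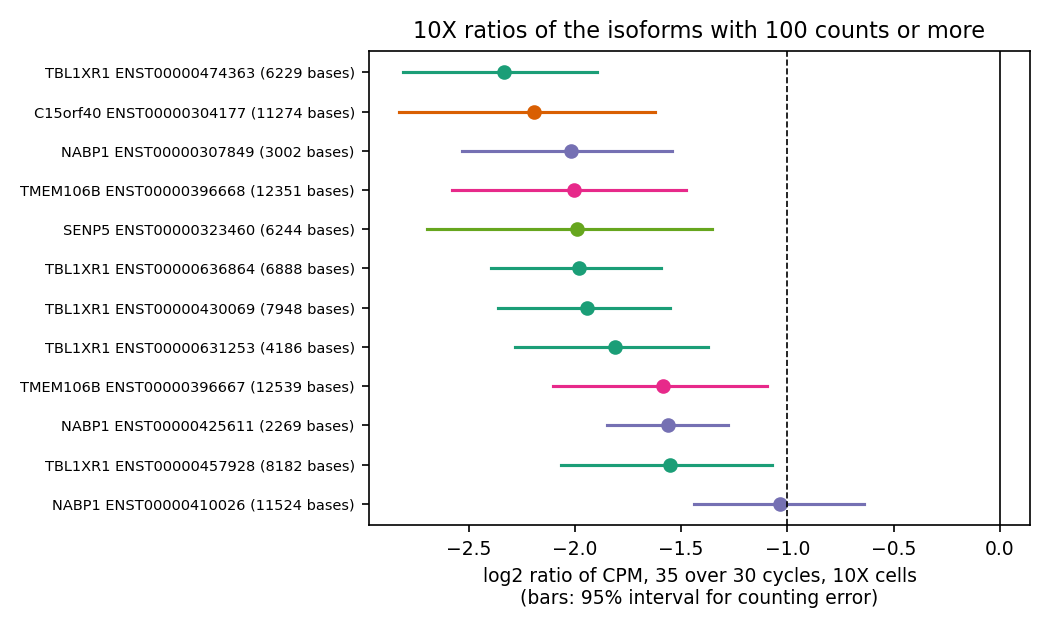
Log2 ratio of CPM at 35 over 30 cycles in 10X cells for the 12 isoforms with at least 100 counts, with 95% intervals for counting error; the dashed line marks a 2-fold fall. Points run from −2.33 for TBL1XR1 ENST00000474363 to −1.03 for NABP1 ENST00000410026, the one isoform whose interval crosses the dashed line. The intervals treat UMIs as independent and may be too narrow.

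The counts followed human cells closely, as counts of human transcripts did in general. Cells were called human or mouse by their share of human counts, these genes included, so a high share is largely set by that definition. At 30 cycles, 891 of the 893 counts in single-species 10X cells lay in human cells (99.8%, 99.2 to 100), and at 35 cycles 366 of 366. Over all human transcripts the shares were 98.7% and 98.4%. The exception was 1 mouse cell with 2 counts of TBL1XR1 at 30 cycles. Mixed barcodes held 76 and 46 counts. At 35 cycles, 0 of 881 mouse cells had a stored value, which for counting error alone allows a share of up to 0.418% (exact Clopper-Pearson) of cells with 2 or more counts of a gene, at the same median depth of 171 counts as in human cells. Outside the called cells lay 26.1% of the counts of the 5 genes at 30 cycles and 34.0% at 35, below the 34.9% and 42.0% over all human transcripts. By gene the shares at 30 and 35 cycles were 16.5% and 48.2% for SENP5, 15.7% and 40.7% for C15orf40, 30.4% and 41.7% for TBL1XR1, 26.3% and 26.0% for NABP1 and 28.7% and 28.2% for TMEM106B, so SENP5 at 35 cycles lay above that over all human transcripts.

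A value for at least 1 of the 5 genes was found in 307 of 1006 human cells (30.5%, 27.7 to 33.5) at 30 cycles and in 141 of 911 (15.5%, 13.2 to 18.0) at 35. The share fell although the median depth of human cells rose from 118 to 171 counts. After thinning each cell to 100 counts, leaving out 348 shallower human cells at 30 cycles and 0 at 35, the shares were 29.5% and 10.7%. Before thinning, the 658 cells kept at 30 cycles had a share of 37.5%, and the 911 at 35 cycles 15.5%. NABP1 was found in the most human cells, 150 (14.9%) and 77 (8.45%), then TBL1XR1 in 101 (10.0%) and 38 (4.17%). TMEM106B followed with 59 and 26 cells, C15orf40 with 46 and 13 and SENP5 with 35 and 12. Human cells with a value were deeper than those without, with medians of 167 against 108 counts at 30 cycles and of 240 against 164 at 35. Values of 2 or more of the genes were found in 65 human cells at 30 cycles and in 21 at 35.

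Most values were as small as the matrix could store. Of the entries of each gene, 78.2% to 89.8% at 30 cycles and 82.3% to 92.6% at 35 stood at 2, against 85.4% and 79.6% of all entries of those libraries. The highest value of any of the 5 genes in a 10X barcode was 5. Fewer barcodes held a value at 35 cycles, 79 against 170 for TBL1XR1 and 117 against 229 for NABP1, and 26, 40 and 27 against 59, 88 and 45 for C15orf40, TMEM106B and SENP5. A count of 1 in a 10X barcode would leave no entry in these matrices.

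The libraries of 30 and 35 cycles shared 1541 of 2000 cell barcodes in 10X, and 722 of these were human cells in both. Within those 722 cells TBL1XR1 had a value in 74 at 30 cycles and in 12 of the same cells again at 35 (16.2%, 8.67 to 26.6), with 25 more cells at 35 only. NABP1 was found again in 29 of 124 cells (23.4%, 16.3 to 31.8), TMEM106B in 5 of 47, C15orf40 in 3 of 37 and SENP5 in 3 of 28. Over all human genes, 29.5% of the 33833 values of these cells were stored again. The counts of the 5 genes in these cells at 35 cycles were 0.265 (C15orf40) to 0.570 (NABP1) times those at 30, while the summed counts of all human genes were 1.26 times as high. These cells hold most of the counts that the genes were chosen on, so their values describe the same fall and do not support it.

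**Figure D4:**
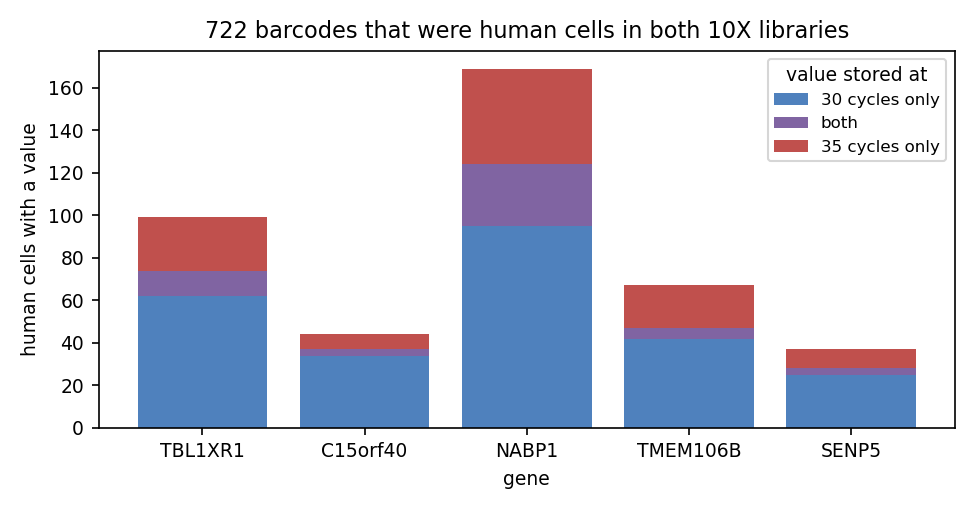
Number of the 722 human 10X cells found in both libraries that had a value of each gene at 30 cycles only, at both, or at 35 cycles only. For TBL1XR1 these are 62, 12 and 25 cells, and for each gene cells with a value at 30 cycles only are the largest part.

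Low ratios in 10X went with transcript length across human transcripts. Of the 391 tested transcripts with an annotated length, those under 1000 bases fell least often. At least 2-fold lower were 5.63% of these 71, and the median log2 ratio was 0.17. The share was 8.11% of 74 between 1000 and 2000 bases and 27.6% of 123 between 2000 and 5000. At 5000 bases or more it was 53.7% of 123, with a median of −1.02. With the 5 genes left out, 50% of the 114 long transcripts were still lower, with a median of −1.0. In that class were 9 of the 12 member isoforms. The other 3, NABP1 ENST00000425611 and ENST00000307849 and TBL1XR1 ENST00000631253, were 2269 to 4186 bases long and had ratios of −1.56 to −2.02. Within NABP1 the ratios did not follow length: they were −1.56 at 2269 bases, −2.02 at 3002 and −1.03 at 11524. Isoforms of 1 gene can share reads, so the transcripts in these classes cannot be taken as independent.

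**Figure D5:**
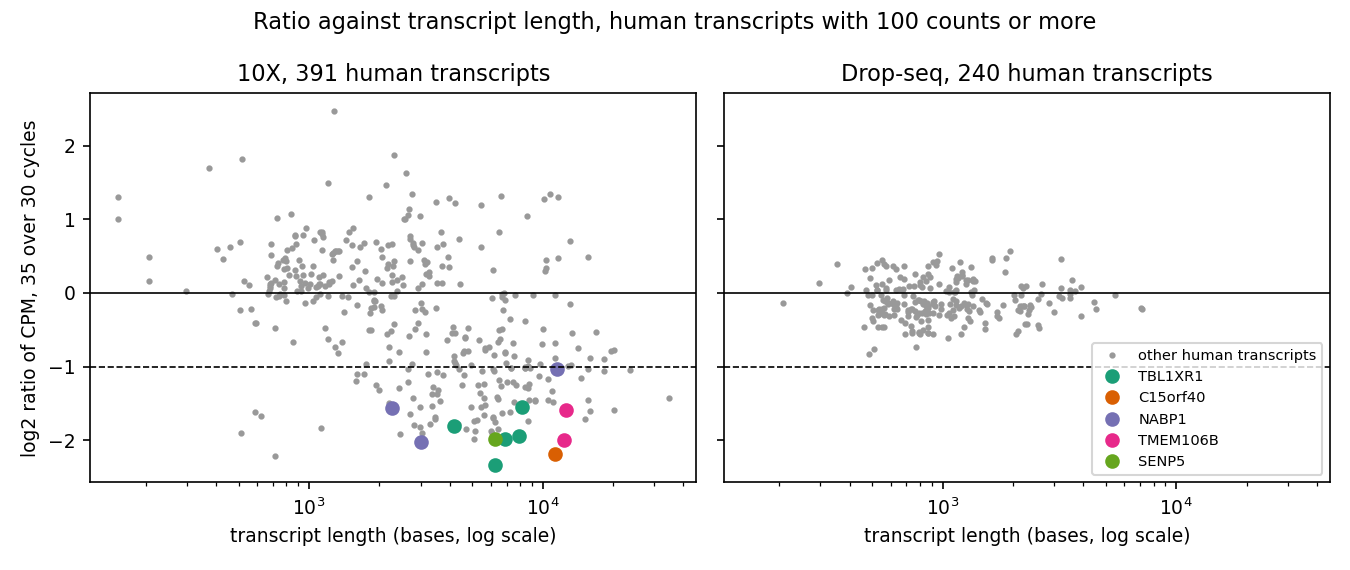
Log2 ratio of CPM at 35 over 30 cycles against annotated transcript length (log scale) for human transcripts with at least 100 counts, in 10X (391) and Drop-seq (240). The coloured member isoforms sit at −1.03 or lower in 10X, none reached 100 counts in Drop-seq, and there the 3 longest transcripts tested lay near 0.

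Drop-seq was not used to choose the genes and gave few counts for them. In the cells of the 30- and 35-cycle libraries TBL1XR1 had 5 and 0 counts, C15orf40 5 and 6, NABP1 6 and 4 and TMEM106B 9 and 11. SENP5 had none. Summed over the 5 genes there were 25 counts at 30 cycles and 21 at 35, a log2 ratio of −0.75 (−1.66 to 0.15). Over all barcodes the sums were 45 and 54, −0.39 (−0.98 to 0.22), and TMEM106B alone held 59 of these 99 counts. By gene over all barcodes, TBL1XR1 had 8 and 3 counts (−1.93, −4.61 to −0.002) and NABP1 6 and 4 (−1.18, −3.50 to 0.84). C15orf40 had 8 and 11 (−0.21, −1.64 to 1.33) and TMEM106B 23 and 36 (−0.01, −0.79 to 0.82). These ratios rest on 1 library each and on a larger smallest stored value than in 10X, so they were not set against the 10X ratios. No isoform of the 5 genes reached 100 counts, and of the 262 human transcripts that did, the share at least 2-fold lower was 0%. Only 3 of these were of 5000 bases or more, with a median ratio of −0.20, and the median length of those tested was 897 bases. For the sum of the 5 genes in Drop-seq cells alone the interval was too wide to tell a 2-fold fall from no change. That of TBL1XR1 in cells, with 5 and 0 counts, ended at −0.37, but the 5 counts lay in 1 human cell.

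Individual barcodes could be followed through the 3 Drop-seq libraries, which shared 446 to 457 cell barcodes with one another. TMEM106B had 23 counts in 1 human cell at 25 cycles, and the same barcode had 9 at 30 cycles and 11 at 35. That cell held all TMEM106B counts in human cells of these libraries. C15orf40 likewise stood in 1 human cell with 2, 5 and 6 counts. One human cell had 2, 5 and 0 counts of TBL1XR1, and a pair of human cells had 1, 3 and 0 counts of NABP1 each. Of the 14 such gene and barcode combinations with a value at 30 or 35 cycles, 13 also had a value at 25. The 25-cycle matrix stored values from 1 and the others only from 3, which favours this direction. At 25 cycles, 51 barcodes had a value of TMEM106B, 24 of TBL1XR1, 17 of NABP1, 12 of C15orf40 and 4 of SENP5, so most had none later. In the single-species cells of all 3 libraries, 73 counts lay in human cells and 3 in mouse cells, these 3 at 25 cycles.

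The partners of these genes were measured too thinly to set beside them. None of the 6 other corepressor genes, 13 SUMO pathway genes, 6 genes of the SOSS and RPA complexes or 9 lysosomal genes reached 100 counts in 10X. NCOR1, the corepressor that binds TBL1XR1, had 14 counts at 30 cycles and 32 at 35, and TBL1X, the close relative of TBL1XR1, had 9 and 4. The 6 corepressor genes summed to 43 and 55 counts (log2 ratio −0.14, −0.74 to 0.47), and the SUMO genes to 98 and 103 (−0.42, −0.83 to −0.01). The lysosomal genes summed to 31 and 34 counts (−0.36, −1.11 to 0.39), and the SOSS and RPA genes to 4 and 21 (1.76, 0.33 to 3.90). None of these list sums fell 2-fold, and their intervals lay above −1 except that of the lysosomal genes. The single-stranded DNA binding list moved against NABP1, on few counts, with INIP at 0 and 9.

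Other genes shared the pattern of levels. Over 15 points, 5 libraries by 3 barcode classes, the log2 CPM profile most like that of TBL1XR1 among 510 human genes was that of HNRNPA1P54 (Pearson's r 0.969), then TMBIM6 (0.955). NABP1 was most like TMBIM6 (0.964) and HNRNPA1P54 (0.962). C15orf40 was near to TENT5C (0.984), TMEM106B to ASB3 (0.990) and MYH9 (0.984), and SENP5 to RSPRY1 (0.996) and FOXO3 (0.995). The points share libraries and depth, and the correlations are given as a description.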

How the data were processed

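Human cells and mouse 5TGM1 cells were profiled by single-cell nanopore RNA sequencing in 5 libraries with a transcript matrix. The human line was JJN3 per the labels and the study's library methods, and Jurkat per its culture methods. The sample labelled as a test of the homotrimer template-switch oligo held read numbers only and was not used here. The authors called bases, found the barcode and UMI beside the poly(A) tail, aligned reads to human hg38 and mouse transcriptomes with minimap2, and deposited UMI counts per barcode and transcript. The 10X counts were made with the directional method of UMI-tools. Which of UMI-tools and the authors' set cover script gave the deposited Drop-seq counts, and why small values are missing on either platform, is not given in the sources used here. Barcodes had 10 bases, doublets were not called, and mixed barcodes were kept as a class.

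From the counts, transcripts were matched to GENCODE release 44 (42740 of 46484, 91.9%). Counts were summed over cells, and log2 ratios of CPM were formed with a pseudocount of 0.5 counts. The ratio and call rule was first tried on simulated Poisson counts. These were scaled by the median ratio, not by CPM, and had no lower limit on stored values. Transcripts with at least 100 counts over both libraries of a pair were compared, and 2-fold was used as a rule of size, since 1 library per group allows no test. Intervals are exact (conditional binomial for ratios, Clopper-Pearson for shares, Poisson for levels), cover counting error only, and treat UMIs as independent molecules. A gene's value is the highest of its isoforms in each barcode. Named are all isoforms of the 5 genes, in full from 100 counts, the transcripts nearest to the limit, the partner lists, and the 2 genes most like each member, of which 1 for C15orf40 is not reported here. The members and lists were chosen with earlier results of these data known, and INIP was named after its values were seen. Python 3.11.15, numpy 2.4.6 and scipy 1.17.1 were used. Alternatives were other scalings, cell numbers, purities, count minimums, pseudocounts, and values below 3 left out, and, added after seeing the data, sums over isoforms and thinned cells.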

Additional observations from a re-analysis of the deposited data

Results flagged for a closer look

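The 25-cycle Drop-seq library entered no ratio between cycle numbers, since its smallest stored value differed from that of the other libraries, and is given only as values. It held counts of all 5 genes above the limit of 3 counts that a count of 0 allows. Over all of its barcodes there were 89 counts of TMEM106B, 29 of TBL1XR1, 19 of NABP1, 15 of C15orf40 and 4 of SENP5. Of these 156 counts, 120 (76.9%) lay outside the called cells, against 79.9% of all human transcript counts of that library, and 31 lay in human cells, 23 of them TMEM106B in 1 cell. Of the counts in single-species cells, 91.2% (76.3 to 98.1) lay in human cells, against 88.2% over all human transcripts. With that TMEM106B cell left out, human cells held 8 counts and mouse cells 3, a share of 72.7% (39.0 to 94.0). TBL1XR1 had its values in 24 barcodes, and all 24 had values on 2 or more isoforms.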

How the results depend on the processing

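All 158 alternative values of the 10X log2 ratios of the 12 isoforms and 5 genes were below 0, and 153 were at or below −1, with a range of −3.55 to −0.82. The other 5 were those of NABP1 ENST00000410026, at −0.88 with CPM within human transcripts, −0.82 in human cells only, −0.97 in barcodes that were cells in both libraries, −0.92 with barcodes in place of counts and −0.99 with the number of cells halved. Of these, 13 moved beyond their counting interval, 12 of them with values below 3 left out, all further down. The 12 member isoforms tested and lower became 11 with CPM within species. With a minimum of 200 counts they became 6, which were all the member isoforms that reached that minimum. Human transcripts at least 2-fold lower in 10X numbered 118, and 95 with CPM within species. They numbered 40 with a minimum of 200 counts and 226 with one of 50. In Drop-seq they numbered 0, 6 at 1.5-fold and 3 with a minimum of 50. The minimum also sets how many transcripts were tested, so numbers at different minimums cannot be compared as shares. The share of the 5 genes' counts that lay in human cells rose from 91.2% to 100% in Drop-seq at 25 cycles with a purity of 95% or without values below 3, and from 99.8% to 100% in 10X at 30 cycles without values below 3. Human 10X cells with a value were 43.1% and 24.1% (30 and 35 cycles) with the number of cells halved, 7.01% and 2.60% without values below 3, and 10.7% at 35 cycles after thinning. The cause was not tested. Each library stood alone, so no replicate could be left out. No paired analysis was possible because each group held 1 library. In Drop-seq the few counts of the 5 genes limited the ratios, and alternatives were computed for TMEM106B only, whose 10 values ranged from −0.41 to −0.01.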
